A study of Mus musculus with 18 samples.

Results

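Dual specificity MAP kinase phosphatases were examined in an immortalized mouse line of brown preadipocytes, the cells from which brown adipocytes form, after vehicle or FGF6. The members were the 9 genes *Dusp1*, *Dusp4*, *Dusp5*, *Dusp6*, *Dusp7*, *Dusp8*, *Dusp10*, *Dusp14*, and *Dusp16*, taken from the 48023 genes of the count table by matching their Ensembl identifiers to GENCODE symbols on GRCm38. All 9 passed the filter on low counts, as did 15071 genes in all. For 4, 8, or 24 h, cells were kept with vehicle (Veh) or with 200 ng/ml of FGF6, and total RNA gave 3 libraries in each of the 6 groups, 18 in all. Both arms were therefore the same immortalized line, with no differentiation treatment named for either, and FGF6 was used at 1 dose. The labels do not say whether the 3 libraries of a group came from separate cultures, so the p-values measure the spread between these libraries, which may be technical.

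MAP kinases are switched on by phosphorylation of a threonine and a tyrosine in their activation loop, and dual specificity phosphatases remove both phosphates. Some of these phosphatases work in the nucleus and are made rapidly after stimulation, some stay in the cytoplasm and prefer ERK, and others act mainly on the stress-activated kinases JNK and p38. Transcription of several of them is itself turned on by ERK signaling, so that they act as feedback inhibitors downstream of FGF receptors.

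Library totals ranged from 24327816 to 33471980 counts. Expression is given below as CPM, the usual unit of a gene's counts relative to the library total, scaled by TMM factors, which lay between 0.951 and 1.05, and 3 counts in a library corresponded to 0.0905 to 0.126 CPM. That floor covers counting error only. The preadipocyte and stromal list of 8 markers summed to between 1180 and 1392 CPM in the vehicle libraries, with 7 of the 8 above 1 CPM. *Dlk1*, a surface marker of some preadipocytes, was at 0 in all libraries. With FGF6 the sum was 939 to 978 CPM at 4 h, 783 to 854 CPM at 8 h, and 391 to 407 CPM at 24 h. At 24 h 6 of the 7 tested preadipocyte markers were lower and 1, *Cd34*, was higher, at 43.0 ± 3.4 CPM against 16.5 ± 0.92 CPM in vehicle cells (SD, n = 3, edgeR FDR 9.69e-14). The 5 mature adipocyte markers summed to between 93.3 and 174 CPM in vehicle libraries and between 63.9 and 97.0 CPM with FGF6, mostly *Fabp4*. *Ucp1*, the uncoupling protein of brown fat, had 0 counts in the vehicle libraries at 24 h and 17 to 25 with FGF6. The 3 leukocyte markers summed to at most 4.15 CPM and the 2 epithelial markers to at most 0.420 CPM. At 24 h the 3 endothelial markers summed to 0.715 to 1.19 CPM with vehicle and 3.71 to 5.65 CPM with FGF6, most of it *Cdh5*, while *Pecam1* had at most 4 counts in a library. The 3 muscle markers summed to 5.75 to 6.69 CPM with vehicle and 1.61 to 2.13 CPM with FGF6 at that time, and the leukocyte markers to 0.784 to 1.72 and 0.322 to 0.477 CPM. The single markers named here were chosen after their values were seen. The preadipocyte, adipocyte, endothelial, muscle, and leukocyte sums moved with FGF6 at 24 h, and their part in the results on the phosphatases was not tested. In such bulk RNA, fewer cells of a type and less RNA per cell cannot be told apart.

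FGF6 strongly upregulated 3 of the 9 phosphatases, *Dusp4*, *Dusp5*, and *Dusp6*, at every time point, by 10.2-fold to 30.4-fold. *Dusp7*, a cytoplasmic ERK phosphatase, rose by 1.60-fold at 4 and 8 h and not at 24 h. *Dusp8*, which acts on JNK and p38, was the member lower with FGF6 at all 3 times at an edgeR FDR under 0.05, by 1.82-fold to 2.33-fold. *Dusp10* was higher with FGF6 at 4 and 8 h and lower at 24 h. Of the other 3, *Dusp1* was lower with FGF6 at 4 and 24 h, by 1.33-fold and 1.66-fold. At 8 h *Dusp1* was also lower, by 1.19-fold, but did not pass that FDR. *Dusp14* was lower at 4 and 8 h, by 1.46-fold and 1.18-fold, and *Dusp16* differed by at most 1.17-fold. These 3, *Dusp7*, and *Dusp10* all differed between the arms by less than 1.7-fold at each time.

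**Figure D1:**
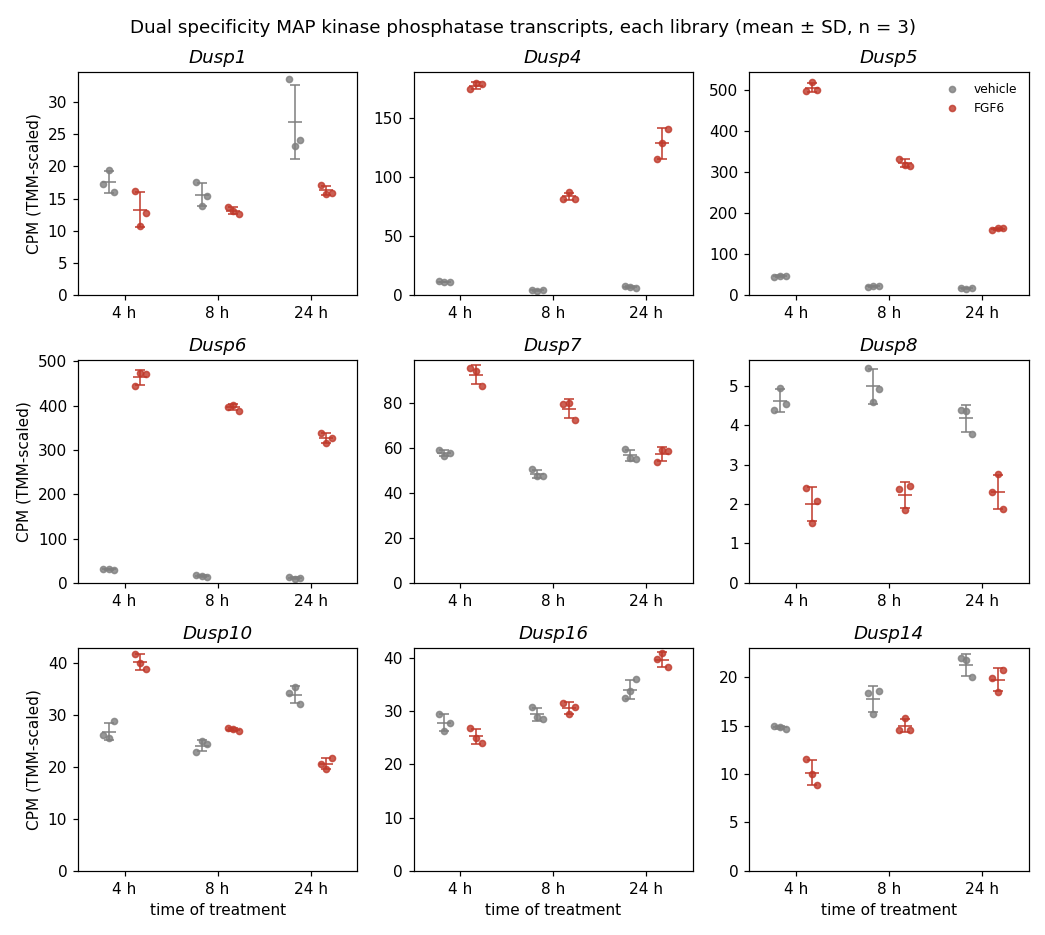
CPM (linear axes from 0, a scale of its own in each panel) of the 9 phosphatase transcripts in each of the 18 libraries at 4, 8, and 24 h, with vehicle in grey and FGF6 in red; bars show the mean ± SD of 3 libraries. In the panels of *Dusp4*, *Dusp5*, and *Dusp6* the FGF6 libraries lie far above the vehicle libraries at all 3 times, those of *Dusp8* lie below them, and those of *Dusp10* lie above at 4 and 8 h and below at 24 h.

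In edgeR (quasi-likelihood test, false discovery rate or FDR adjusted by Benjamini-Hochberg over all 15071 genes), 5 members were higher and 4 lower at 4 h at an FDR under 0.05, against 28.6% of all genes higher and 34.2% lower. At 8 h, 5 were higher and 2 lower (32.4% and 38.4% of all genes). At 24 h, 4 were higher and 3 lower (35.9% and 37.9% of all genes). At least 2-fold, 3 members were higher at each time, where the share of all genes was 4.96% at 4 h, 7.39% at 8 h, and 7.44% at 24 h. One member was at least 2-fold lower at 4 h and at 8 h and 0 at 24 h, where the share of all genes was 6.38%, 10.9%, and 15.3%. The median log2 fold change of the members was 0.59, 0.17, and 0.01 at 4, 8, and 24 h, against -0.05, -0.05, and -0.02 for all genes tested. Their median absolute log2 fold change was 0.68, 0.68, and 0.73, against 0.32, 0.41, and 0.48. The FGF6 and vehicle libraries did not overlap for 7 members at 4 h, 8 at 8 h, and 7 at 24 h, compared with 66.2%, 73.8%, and 74.8% of all genes. Of the genes called at 4 h, 4308 were higher and 5152 lower, and 3242 and 6495 when only library sizes scaled the counts. That scaling moved the median log2 fold change of all genes at 4 h from -0.05 to -0.15.

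**Figure D2:**
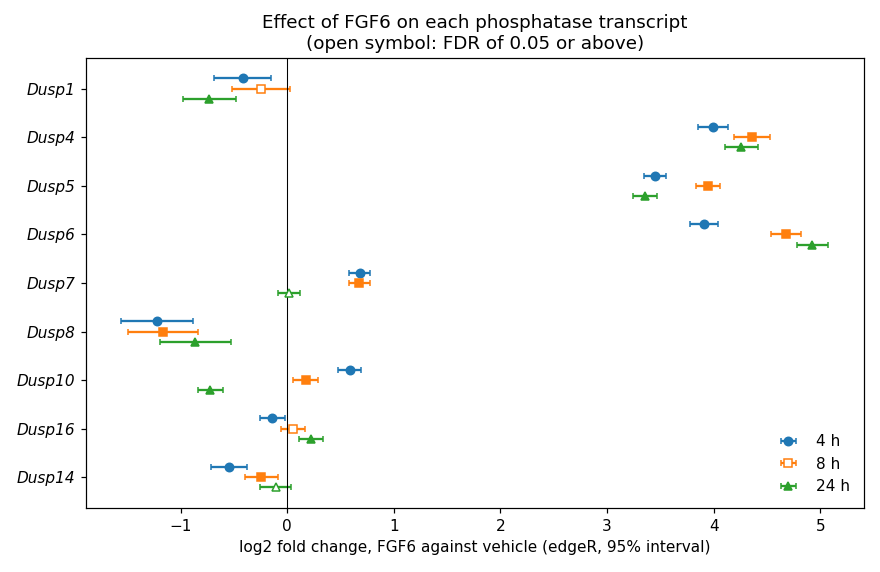
Log2 fold change of each phosphatase, FGF6 against vehicle, at 4 h (circles), 8 h (squares), and 24 h (triangles) from edgeR; horizontal bars are 95% intervals and open symbols have an FDR of 0.05 or above. The *Dusp4*, *Dusp5*, and *Dusp6* effects lie between 3.35 and 4.93, the *Dusp8* effects between -1.22 and -0.86, and the *Dusp10* effects run from 0.59 at 4 h to -0.72 at 24 h.

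The nuclear, inducible phosphatases came first. *Dusp4* (chr8:34807297-34819894, plus strand), which dephosphorylates ERK and JNK in the nucleus, had 11.4, 11.0, and 10.98 CPM in the vehicle libraries at 4 h and 174, 179, and 178 CPM with FGF6. At 8 h, vehicle cells had 4.20, 3.53, and 4.45 CPM and FGF6 cells 81.3, 87.2, and 81.5 CPM. By 24 h the values were 7.39, 6.69, and 5.93 CPM against 115, 129, and 141 CPM. Every FGF6 library was thus far above every vehicle library, and both arms were lowest at 8 h. The log2 fold change was 3.99 ± 0.07 (SE, n = 3 against 3) at 4 h, 4.36 ± 0.08 at 8 h, followed by 4.26 ± 0.07 at 24 h (FDR 2.41e-24, 6.01e-24, and 8.81e-25). *Dusp4* fell from 4 to 8 h by 1.45 on the log2 scale in vehicle cells (FDR 1.57e-11) and by 1.09 with FGF6 (FDR 2.61e-14), then rose from 8 to 24 h by 0.73 (FDR 7.08e-06) and 0.62 (FDR 4.92e-10).

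*Dusp5* (chr19:53529109-53542431, plus strand) encodes a nuclear phosphatase specific for ERK. Its vehicle libraries had 44.1, 47.2, and 47.3 CPM at 4 h and its FGF6 libraries 498, 519, and 501 CPM. At 8 h the values were 19.2, 21.2, and 22.2 CPM against 333, 317, and 313 CPM. At 24 h they were 16.95, 14.0, and 16.4 CPM against 158, 162, and 162 CPM. No libraries of the arms overlapped, and the level declined with time in both. FGF6 changed *Dusp5* by a log2 fold change of 3.45 ± 0.05 at 4 h, 3.95 ± 0.05 at 8 h, and 3.35 ± 0.05 at 24 h (SE, FDR 1.14e-25, 1.34e-26, and 2.14e-25). With FGF6 the transcript fell by 0.66 on the log2 scale from 4 to 8 h (FDR 4.34e-12) and by 1.00 from 8 to 24 h (FDR 7.43e-16). In vehicle cells it fell by 1.15 (FDR 1.34e-14) and 0.41 (FDR 4.82e-06) over the same intervals. Of the 2473 exonic bases of *Dusp5*, 547 lie opposite the antisense transcript AC137853.2, which has no entry in the count table. The strand setting of the counting is not given in the sources used here, so reads of the pair cannot be told apart. *Dusp8* and *Dusp1* share 66 and 11 exonic bases with *Gm32786* and *Ergic1* on the other strand.

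*Dusp1* (chr17:26505590-26562128, minus strand), a nuclear phosphatase of p38, JNK, and ERK that many stress and growth signals induce within minutes to hours, was not higher with FGF6 at any time measured. At 4 h it had 17.2, 19.4, and 16.1 CPM in vehicle libraries and 16.2, 10.8, and 12.7 CPM with FGF6. At 8 h it had 17.5, 13.9, and 15.4 CPM against 13.7, 13.1, and 12.6 CPM. At 24 h it had 33.6, 23.1, and 24.1 CPM against 17.1, 15.8, and 15.9 CPM. The arms overlapped at 4 h and separated at 8 and 24 h, and vehicle replicate 1 at 24 h stood above its fellows. For *Dusp1* the log2 fold change came to -0.42 ± 0.13 at 4 h (SE, FDR 0.00728), -0.25 ± 0.13 at 8 h (FDR 0.0951), and -0.73 ± 0.12 at 24 h (FDR 7.84e-06). Without FGF6 4 h replicate 2 the 4 h difference was -0.25 (FDR 0.113), without Veh 8 h replicate 2 the 8 h difference was -0.33 (FDR 0.0490), and without Veh 24 h replicate 1 the 24 h difference was -0.50, still called. Vehicle cells had more *Dusp1* at 24 h than at 8 h, by 0.79 on the log2 scale (FDR 6.81e-06), and FGF6 cells by 0.30 (FDR 0.0486).

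*Dusp6* (chr10:99263231-99267489, plus strand), the cytoplasmic phosphatase selective for ERK and a classic feedback gene of FGF signaling, had the largest fold change of the 9 members at 8 and 24 h. Vehicle libraries had 31.1, 31.8, and 29.7 CPM at 4 h and FGF6 libraries 445, 474, and 472 CPM. At 8 h the values were 16.7, 16.02, and 13.5 CPM against 397, 402, and 389 CPM. At 24 h they were 12.8, 9.56, and 9.96 CPM against 338, 316, and 328 CPM. The arms were far apart at every time, and both declined, the vehicle arm more steeply on the log2 scale. As log2 fold changes these were 3.91 ± 0.06 at 4 h, 4.68 ± 0.07 at 8 h, and 4.93 ± 0.07 at 24 h, or 15.0-fold, 25.6-fold, and 30.4-fold (SE, FDR 9.76e-25, 4.77e-26, and 1.65e-26). From 4 to 8 h *Dusp6* fell by 1.00 on the log2 scale in vehicle cells (FDR 2.29e-11) and by 0.23 with FGF6 (FDR 0.000992), and from 8 to 24 h by 0.52 (FDR 8.14e-06) and 0.27 (FDR 9.24e-05).

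*Dusp7* (chr9:106368632-106375724, plus strand), the other member that acts on ERK in the cytoplasm, had 58.9, 56.3, and 57.7 CPM in vehicle libraries at 4 h and 95.3, 94.0, and 87.4 CPM with FGF6. At 8 h it had 50.4, 47.5, and 47.3 CPM against 79.5, 80.0, and 72.3 CPM. At 24 h it had 59.3, 55.3, and 55.0 CPM against 53.7, 59.0, and 58.7 CPM. The arms were separate at 4 and 8 h and overlapped at 24 h. This gave a log2 fold change of 0.68 ± 0.05 at 4 h and 0.68 ± 0.05 at 8 h (SE, FDR 4.36e-12 and 4.26e-12), and 0.01 at 24 h with a 95% interval from -0.09 to 0.12 (FDR 0.804). FGF6 cells had less *Dusp7* at 24 h than at 8 h, by -0.44 on the log2 scale (FDR 2.23e-08), while vehicle cells had more, by 0.23 (FDR 0.000529).

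Of the phosphatases directed at JNK and p38, *Dusp8* (chr7:142079490-142095843, minus strand) was the least abundant, with 48 to 173 counts in a library. Its vehicle libraries had 4.38, 4.95, and 4.54 CPM at 4 h and its FGF6 libraries 2.40, 1.53, and 2.07 CPM. At 8 h the values were 5.46, 4.58, and 4.93 CPM against 2.38, 1.85, and 2.47 CPM. At 24 h they were 4.38, 4.37, and 3.78 CPM against 2.30, 2.75, and 1.87 CPM. No FGF6 library reached the lowest vehicle library at any time. Expressed as log2 fold change, *Dusp8* stood at -1.22 ± 0.16 at 4 h, -1.17 ± 0.16 at 8 h, and -0.86 ± 0.16 at 24 h (SE, FDR 4.20e-07, 3.81e-07, and 3.90e-05). Neither arm passed the test for a change between consecutive times.

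*Dusp10* (chr1:184013302-184075636, plus strand), a JNK and p38 phosphatase of nucleus and cytoplasm, had 26.1, 25.7, and 28.8 CPM in vehicle libraries at 4 h and 41.9, 40.1, and 38.9 CPM with FGF6. At 8 h it had 23.0, 24.95, and 24.5 CPM against 27.4, 27.3, and 26.9 CPM. At 24 h it had 34.2, 35.4, and 32.2 CPM against 20.6, 19.6, and 21.7 CPM. The libraries of the arms did not overlap at any time, and their order turned over between 8 and 24 h. The log2 fold change of *Dusp10* was 0.59 ± 0.05 at 4 h (FDR 5.47e-10), 0.17 ± 0.06 at 8 h (FDR 0.00761), and -0.72 ± 0.06 at 24 h (SE, FDR 1.62e-11). The 8 h call was lost with library sizes alone, where the difference was 0.11. *Dusp10* fell in FGF6 cells by 0.56 on the log2 scale from 4 to 8 h (FDR 2.99e-09) and by 0.40 from 8 to 24 h (FDR 1.45e-06). In vehicle cells the change was -0.15 from 4 to 8 h (FDR 0.028) and 0.49 from 8 to 24 h (FDR 4.63e-08).

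*Dusp16* (chr6:134715468-134792625, minus strand), a JNK-directed phosphatase, had 29.4, 26.3, and 27.8 CPM in vehicle libraries at 4 h and 26.8, 24.99, and 24.1 CPM with FGF6. At 8 h the values were 30.7, 29.0, and 28.5 CPM against 31.5, 29.4, and 30.9 CPM. At 24 h they were 32.4, 33.8, and 36.0 CPM against 39.8, 41.0, and 38.2 CPM. The arms overlapped at 4 and 8 h and separated at 24 h. *Dusp16* had a log2 fold change of -0.14 ± 0.06 at 4 h (SE, FDR 0.0352), 0.06 ± 0.05 at 8 h (FDR 0.359), and 0.22 ± 0.05 at 24 h (FDR 0.000587). The 4 h call was lost without FGF6 4 h replicate 2 (-0.11, FDR 0.174), FGF6 4 h replicate 3 (-0.08, FDR 0.272), Veh 4 h replicate 1 (-0.10, FDR 0.178), or Veh 4 h replicate 3 (-0.14, FDR 0.066), and with DESeq2 (-0.11). FGF6 cells had more *Dusp16* at each later time, by 0.27 from 4 to 8 h (FDR 0.000233) and 0.37 from 8 to 24 h (FDR 1.35e-06). Vehicle cells also had more at 24 h than at 8 h, 34.0 ± 1.8 against 29.4 ± 1.2 CPM (SD, n = 3). The FGF6 effect did not pass the edgeR test for a change from 8 to 24 h (0.165, FDR 0.0826).

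*Dusp14* (chr11:84048041-84069261, minus strand) encodes a small atypical phosphatase that lacks the MAP kinase binding domain of the others. It had 15.0, 14.8, and 14.6 CPM in vehicle libraries at 4 h and 11.5, 9.98, and 8.90 CPM with FGF6. At 8 h it had 18.4, 16.2, and 18.6 CPM against 14.6, 15.7, and 14.6 CPM. At 24 h it had 22.0, 21.7, and 20.0 CPM against 20.0, 18.5, and 20.8 CPM. The arms were separate at 4 and 8 h and overlapped at 24 h. In log2 terms the difference was -0.55 ± 0.08 at 4 h (SE, FDR 2.15e-06), -0.24 ± 0.08 at 8 h (FDR 0.00574), and -0.11 ± 0.07 at 24 h (FDR 0.180). Without FGF6 8 h replicate 3 the 8 h difference was -0.18 (FDR 0.0608). *Dusp14* was higher at each later time in both arms, by 0.26 and 0.26 in vehicle cells (FDR 0.00631 and 0.00374) and by 0.56 and 0.40 with FGF6 (FDR 3.05e-06 and 5.71e-05).

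To see whether the effect of FGF6 itself changed with time, the differences of effects were tested as interactions. From 4 to 8 h it changed for 5 members (30.6% of all genes), from 8 to 24 h for 5 (45.1%), and from 4 to 24 h for 6 (53.5%). The *Dusp6* effect grew by 0.77 ± 0.09 on the log2 scale from 4 to 8 h (SE, FDR 3.13e-07) and by 1.02 ± 0.09 from 4 to 24 h (FDR 1.05e-09). From 8 to 24 h it moved by 0.25 ± 0.10 (FDR 0.0418), a call lost with limma-voom (FDR 0.0612), with a minimum of 10 counts (FDR 0.0810), and with only the libraries compared (FDR 0.0563), and kept in 4 of 12 fits with 1 library left out (0.16, FDR 0.232, without Veh 24 h replicate 2). *Dusp5* gained 0.49 ± 0.07 from 4 to 8 h (FDR 5.90e-06) and its effect then dropped by 0.59 ± 0.08 from 8 to 24 h (FDR 5.17e-07). For both, the gain from 4 to 8 h came with a decline in both arms that was larger in vehicle cells on the log2 scale. The *Dusp10* effect moved by -1.31 ± 0.08 from 4 to 24 h (FDR 2.83e-13) and the *Dusp7* effect by -0.67 ± 0.07 (FDR 9.56e-09). *Dusp14* and *Dusp16* moved upward over the same span, by 0.44 ± 0.11 (FDR 0.00143) and 0.36 ± 0.08 (FDR 0.000327). For *Dusp8* the change from 4 to 24 h was 0.36 with a 95% interval from -0.12 to 0.84 (FDR 0.206).

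Within each arm, most members changed between time points. In the FGF6 arm, time in culture and length of exposure cannot be told apart. In vehicle cells 6 members changed from 4 to 8 h (43.0% of all genes) and 8 from 8 to 24 h (49.2%). In FGF6 cells 7 changed from 4 to 8 h (48.2%) and 8 from 8 to 24 h (62.3%). From 4 to 8 h, 5 of the 6 in vehicle cells fell, and *Dusp4* and *Dusp5* fell by at least 2-fold. Of all 15071 genes, 3277 fell over that interval in vehicle cells, 246 of them by at least 2-fold. These time contrasts share libraries with one another and with the comparisons of FGF6 and vehicle.

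Levels of different genes were compared as CPM per kb of exonic length, taken over all annotated transcripts of a gene. At 4 h, vehicle cells held *Dusp5* at 18.7 ± 0.75 (SD, n = 3) CPM per kb and *Dusp7* at 17.2 ± 0.40, followed by *Dusp6* at 9.85 ± 0.33, *Dusp10* at 8.83 ± 0.56, *Dusp14* at 7.62 ± 0.093, *Dusp1* at 5.30 ± 0.51, *Dusp4* at 4.06 ± 0.075, *Dusp16* at 3.57 ± 0.20, and *Dusp8* at 0.949 ± 0.060. No neighbours in that order overlapped. The spread between libraries does not include error in the exonic lengths, so close neighbours in these orders are not firmly ranked. By 24 h the vehicle order was led by *Dusp7* at 16.9 ± 0.72 CPM per kb, with *Dusp10* at 11.2 ± 0.54 and *Dusp14* at 10.9 ± 0.57, which overlapped, and *Dusp4* was second to last at 2.44 ± 0.27. With FGF6 the order at 4 h was *Dusp5* at 204 ± 4.6 CPM per kb, *Dusp6* at 148 ± 5.1, *Dusp4* at 64.7 ± 1.0, and *Dusp7* at 27.5 ± 1.3. *Dusp5* and *Dusp6* overlapped at 8 h, at 130 ± 4.1 and 126 ± 2.2 CPM per kb, and at 24 h *Dusp6* was first at 105 ± 3.5 and *Dusp5* second at 65.0 ± 1.0. *Dusp8* was last in all 6 groups.

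Summed over the 9 members, the level was 76.0 ± 0.39, 55.8 ± 1.2, and 64.5 ± 3.9 CPM per kb (SD, n = 3) in vehicle cells at 4, 8, and 24 h. With FGF6 it was 471 ± 8.2, 335 ± 7.0, and 261 ± 5.6 CPM per kb. *Dusp4*, *Dusp5*, and *Dusp6* made up 42.9%, 26.6%, and 19.0% of the sum in vehicle cells and 88.6%, 85.7%, and 83.0% with FGF6. The other 6 members together stood at 43.4, 41.0, and 52.3 CPM per kb in vehicle cells and 53.6, 48.0, and 44.4 CPM per kb with FGF6. With FGF6, 3 genes thus made up most of the sum at every time.

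**Figure D3:**
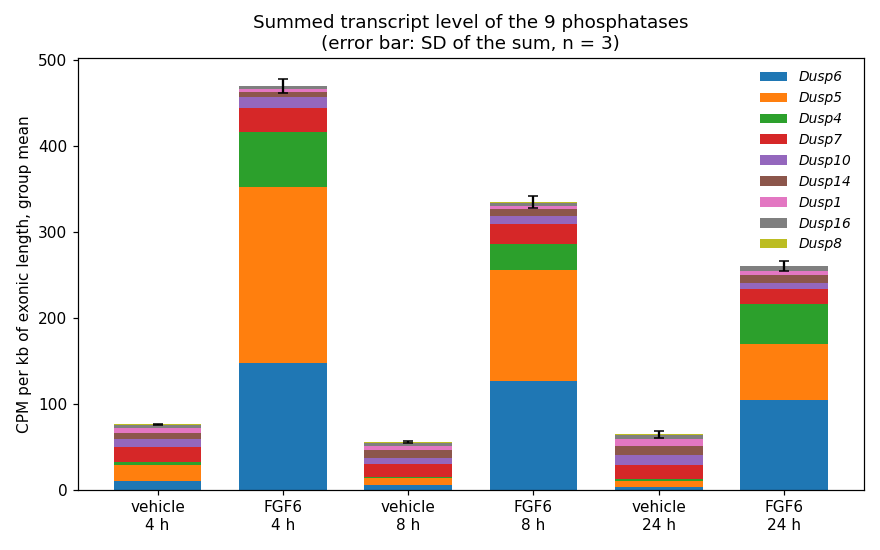
Group mean of CPM per kb of exonic length, stacked by phosphatase, in the 6 groups; the error bar is the SD of the sum over 3 libraries. The FGF6 bars at 4, 8, and 24 h reach 471, 335, and 261, the vehicle bars 76.0, 55.8, and 64.5, and *Dusp4*, *Dusp5*, and *Dusp6* (lowest segments) fill most of the FGF6 bars.

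Over the 18 libraries, *Dusp4*, *Dusp5*, and *Dusp6* tracked each other in log2 CPM, with Pearson's r of 0.979 for *Dusp5* and *Dusp6*, 0.976 for *Dusp4* and *Dusp6*, and 0.953 for *Dusp4* and *Dusp5*. *Dusp8* ran opposite to them (r of -0.932 with *Dusp4* and -0.915 with *Dusp6*). These values describe points that share treatment and time and that fall into an FGF6 and a vehicle cluster. Among 12299 genes with a mean of at least 1 CPM, the 3 closest to *Dusp6* were *Eef1e1*, *Yrdc*, and *Ptgs2* (r of 0.997, 0.996, and 0.996), the last encoding the inducible cyclooxygenase. Closest to *Dusp5* were *Plaur*, the urokinase receptor, *Slc25a37*, and *Dnttip2* (r of 0.999, 0.996, and 0.995), and closest to *Dusp4* were *Ywhag*, *Bcl2l1*, and *Etf1* (r of 0.994, 0.994, and 0.993). For *Dusp7* they were *Esrra*, *Dock5*, and *Amotl1* (r of 0.977, 0.974, and 0.974), for *Dusp8* *Tent5b*, *Nfil3*, and *Kif1b* (0.960, 0.955, and 0.955), and those of *Dusp10* included *Il17ra* and *Plagl1* (0.932 and 0.927). The clock gene *Per1* (r of 0.905) was second to *Uvrag* (0.919) and before *Cox14* (0.901) for *Dusp1*. *Haus4* and *Abhd8* (0.970 and 0.969) were among the closest to *Dusp14*, and *Slc19a2*, *Ptpa*, and *Chchd1* (0.974, 0.972, and 0.964) were closest to *Dusp16*.

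Promoter sequence, which the choice of members did not use, was compared across the family because the members moved in opposite directions. RefSeq start sites on GRCm38.p6 were matched for 8 of the 9 members, all but *Dusp4*, among 32851 windows of 250 bases before a start. Motifs were searched on both strands, and a match describes letters in a window, not a bound site. G and C made up 56.4% (*Dusp6*) to 77.2% (*Dusp7*) of the member windows, against a median of 52.4% over all windows. The part of this in the motif matches was not tested. The CArG box, recognized by serum response factor, lay in the window of *Dusp5* only, as an adjacent pair from 82 to 73 and from 72 to 63 bases before the start, and in 1.47% of all windows. The full cyclic AMP response element TGACGTCA lay in *Dusp1*, once, and *Dusp8*, at 2 places, and in 1.55% of all windows, and its short form TGACG, which overlaps it, in *Dusp1*, *Dusp5*, *Dusp8*, and *Dusp16* (17.8%). The E-box CACGTG lay in *Dusp1* (6.02%), the ETS letters CCGGAA in *Dusp14* (12.0%), and the SP1 site GGGCGG in 6 of the 8 (32.7%), all but *Dusp6* and *Dusp7*. CCGGAA is a narrow form of the ETS site, and GGAA after other letters was not searched. Both *Dusp14* matches lay within the last 223 bases of its window (65 to 60 and 21 to 16 before the start). That stretch begins at a GENCODE exon of the gene. No member window held the AP-1 letters TGANTCA (6.75% of all windows) or the FOXO letters TGTTTAC (3.17%). A strongly induced pair (*Dusp5* and *Dusp6*) and the 3 members that were lower with FGF6 at 24 h (*Dusp1*, *Dusp8*, and *Dusp10*) are shown, 5′ to 3′, with the searched motifs other than the SP1 site in capitals. For *Dusp5* and *Dusp1* the last 36 and 47 bases before the RefSeq start are left out, since GENCODE places exons there. The windows of *Dusp1*, *Dusp8*, and *Dusp10* lie inside the GENCODE span of the gene, after its outermost start.
Dusp5 promoter, chr19:53528895-53529108, plus strand: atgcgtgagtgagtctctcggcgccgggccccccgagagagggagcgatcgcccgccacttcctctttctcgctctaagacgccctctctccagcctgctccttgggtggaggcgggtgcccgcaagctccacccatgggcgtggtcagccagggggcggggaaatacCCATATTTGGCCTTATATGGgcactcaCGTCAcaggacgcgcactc
Dusp6 promoter, chr10:99262981-99263230, plus strand: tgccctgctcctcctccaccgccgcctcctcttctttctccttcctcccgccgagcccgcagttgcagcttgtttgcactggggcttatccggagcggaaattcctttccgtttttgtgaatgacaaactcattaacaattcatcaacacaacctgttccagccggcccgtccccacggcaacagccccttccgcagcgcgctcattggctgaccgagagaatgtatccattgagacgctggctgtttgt
Dusp1 promoter, chr17:26508520-26508722, minus strand: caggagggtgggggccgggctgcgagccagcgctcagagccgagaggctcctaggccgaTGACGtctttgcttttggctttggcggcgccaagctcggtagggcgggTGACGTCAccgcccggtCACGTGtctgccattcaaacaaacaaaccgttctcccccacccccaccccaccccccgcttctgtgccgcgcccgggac
Dusp8 promoter, chr7:142095285-142095534, minus strand: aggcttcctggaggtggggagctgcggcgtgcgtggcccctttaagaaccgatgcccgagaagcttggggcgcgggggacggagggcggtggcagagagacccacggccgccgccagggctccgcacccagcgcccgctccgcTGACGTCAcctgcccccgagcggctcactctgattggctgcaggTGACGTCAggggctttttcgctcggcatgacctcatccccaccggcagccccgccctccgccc
Dusp10 promoter, chr1:184034131-184034380, plus strand: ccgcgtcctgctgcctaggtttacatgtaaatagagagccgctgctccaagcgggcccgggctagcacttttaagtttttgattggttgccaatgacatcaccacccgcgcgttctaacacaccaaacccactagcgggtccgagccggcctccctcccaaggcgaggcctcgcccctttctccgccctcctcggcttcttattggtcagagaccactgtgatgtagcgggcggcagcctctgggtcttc
The *Dusp6* window, of a gene raised 30.4-fold at 24 h, held none of the searched motifs. It did hold the shorter letters GGAA, so ETS sites of other forms are not excluded there. The *Dusp8* window held 2 full cyclic AMP response elements. Of the searched motifs the *Dusp10* window held the SP1 site alone, and no cyclic AMP response element.

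Beyond the members, the remaining typical MAP kinase phosphatases were *Dusp9*, a cytoplasmic ERK phosphatase, and *Dusp2*, a nuclear one. *Dusp9* had 16.8 to 19.5 CPM in vehicle libraries at 4 h and 79.8 to 85.4 CPM with FGF6, and 7.24 to 8.58 CPM against 86.9 to 103 CPM at 24 h. Its log2 fold change was 2.20 ± 0.06, 3.11 ± 0.07, and 3.62 ± 0.07 at 4, 8, and 24 h (SE, FDR 7.60e-20, 3.29e-22, and 1.33e-23). *Dusp2* passed the test at each time (FDR 0.0389, 0.000116, and 0.0416) on only 1 to 7 counts in a vehicle library and 1 to 17 with FGF6, and its arms overlapped at 24 h.

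Of 15 atypical dual specificity phosphatases other than *Dusp14*, 11 were tested, and *Dusp13*, *Dusp21*, *Dusp26*, and *Styxl1* had too few counts. At 4 h 1 was higher and 5 lower, at 8 h 3 and 4, and at 24 h 0 and 8. Of all genes, 28.6% were higher and 34.2% lower at 4 h, 32.4% and 38.4% at 8 h, and 35.9% and 37.9% at 24 h. *Dusp15*, *Dusp23*, and *Dusp27* passed the 2-fold limit, all downward and all near or below 2.5 CPM. *Dusp27* had 57 to 82 counts in vehicle libraries at 24 h and 0 or 1 with FGF6. *Dusp15* had 1.37 ± 0.24 against 0.423 ± 0.087 CPM (SD, n = 3) and *Dusp23* 0.937 ± 0.38 against 0.219 ± 0.22 CPM at that time (FDR 6.63e-06 and 0.000269). Among 7 other phosphatases of MAP kinases and their activators, 6 were tested, and 3 were higher and 1 lower at 4 h, 4 and 1 at 8 h, and 4 and 1 at 24 h. *Ppm1l*, a serine/threonine phosphatase of the stress kinase pathway, had 100 ± 5.9 CPM in vehicle cells and 251 ± 16 CPM with FGF6 at 4 h, a log2 fold change of 1.33 ± 0.04 (SE, FDR 4.92e-19), which was 0.37 ± 0.04 at 24 h (FDR 3.45e-08). *Ptpn5*, a tyrosine phosphatase of ERK and p38, had 0.225 ± 0.13 CPM in vehicle cells at 24 h and 5.25 ± 1.1 CPM with FGF6 (FDR 5.00e-13).

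The kinases had smaller fold changes than *Dusp4*, *Dusp5*, and *Dusp6*. Of 13 MAP kinases, 10 were tested, of which 6 were higher and 2 lower at 4 h, 6 and 2 at 8 h, and 8 and 2 at 24 h. *Mapk6*, an atypical MAP kinase, rose from 144 ± 5.7 CPM in vehicle cells to 601 ± 12 CPM (SD, n = 3) at 24 h, and *Mapk13*, a p38 isoform, from 7.10 ± 0.79 to 25.9 ± 0.94 CPM (FDR 2.36e-25 and 5.41e-16). Of the 7 MAP kinase kinases, 5 were higher and 1 lower at 4 h, 4 and 0 at 8 h, and 6 and 0 at 24 h. *Map2k3* and *Map2k6*, which activate p38, passed the 2-fold limit. *Map2k6* was 9.47 ± 1.1 CPM in vehicle cells and 41.1 ± 2.5 CPM with FGF6 at 24 h (FDR 1.90e-19), and *Map2k3* 89.0 ± 4.4 and 223 ± 5.6 CPM at 8 h (FDR 9.89e-20). None of the 6 RAS and RAF genes reached 2-fold by edgeR, and 3 were higher and 2 lower at 4 h, 3 and 3 at 8 h, and 3 and 2 at 24 h. The shares of all genes higher and lower were 28.6% and 34.2% at 4 h, 32.4% and 38.4% at 8 h, and 35.9% and 37.9% at 24 h.

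Genes commonly used as a readout of ERK output rose with the strongly induced phosphatases. Of 8 listed, 7 were tested and all 7 were at least 2-fold higher at each of the 3 times, while *Epha4* had too few counts. Their median log2 fold change was 2.15, 2.86, and 2.51 at 4, 8, and 24 h. Of all genes, 4.96%, 7.39%, and 7.44% were at least 2-fold higher at these times. The ETS factor gene *Etv4* had 2.11 ± 0.51 CPM in vehicle cells and 68.9 ± 3.5 CPM with FGF6 at 24 h, and *Etv5* had 7.41 ± 0.52 and 59.9 ± 3.5 CPM. *Spry2* and *Spry4*, feedback inhibitors of receptor tyrosine kinases, had log2 fold changes of 2.96 ± 0.05 and 3.12 ± 0.07 at 4 h and 1.92 ± 0.05 and 2.51 ± 0.07 at 24 h. *Ccnd1*, encoding cyclin D1, rose from 50.7 ± 6.4 to 529 ± 28 CPM at 24 h, *Epha2* from 47.4 ± 6.2 to 175 ± 3.6 CPM, and *Phlda1* from 15.3 ± 1.6 to 85.1 ± 5.5 CPM. *Ccnd1* and *Phlda1* share 1100 and 727 exonic bases with genes on the other strand, and their counts carry the same uncertainty as those of *Dusp5*.

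**Figure D4:**
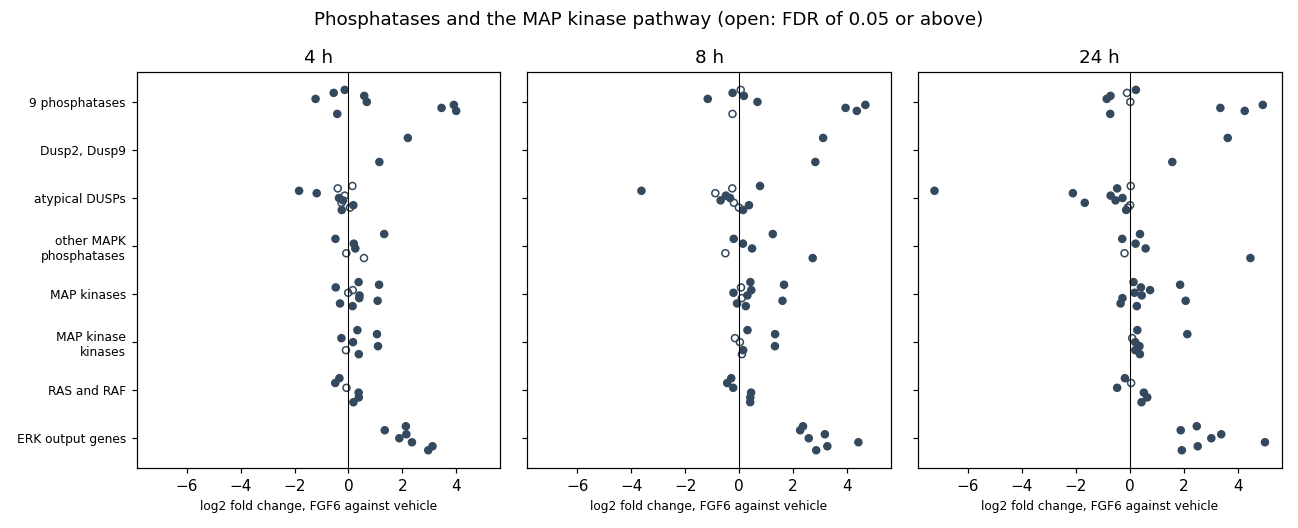
Log2 fold change, FGF6 against vehicle, of the tested genes of 8 lists at 4, 8, and 24 h, each point a gene, with open points at an FDR of 0.05 or above; all panels share 1 scale. All 7 ERK output genes and both *Dusp2* and *Dusp9* lie to the right of 0 at all 3 times, while the kinases and the RAS and RAF genes lie mostly near 0.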

How the data were processed

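RNA from 18 libraries of immortalized murine brown preadipocytes (vehicle or FGF6, 4, 8, or 24 h, 3 libraries per group) was sequenced. The authors aligned reads to GRCm38 with STAR and assigned them to genes with Subread featureCounts, and deposited one table of raw read counts without normalization. Versions, annotation release, strand setting, and the treatment of multiply mapped reads are not given in the sources used here. Groups and replicate numbers came from the sample labels, and the dose from the study's description of its supplementary data.

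The filterByExpr function with the 6 groups kept 15071 of the 48023 genes in the deposited counts (19409 had no count). edgeR 4.0.16 in R 4.3.3 gave TMM factors and a quasi-likelihood fit to 6 group means over all libraries. Adjusted p-values (FDR) are Benjamini-Hochberg over all genes tested, and a call needs an FDR under 0.05. The SE is the one implied by the F statistic. Symbols, positions, and exonic lengths came from GENCODE M21 (98.3% of identifiers matched). CPM uses the TMM-scaled total of kept genes. Libraries of a group differed by more than sampling noise (chi-square per degree of freedom of 2.33 or more). Same-numbered libraries did not deviate together and were not paired. The fit was tested on simulated data for bias and false calls, and missed part of the 2-fold or smaller changes.

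The members and lists were chosen with earlier results of these data known. Named genes were all members, every gene of the phosphatase, kinase, RAS and RAF, and ERK output lists past an FDR under 0.05 and 2-fold at any time, and for each member the 3 genes with the highest Pearson's r of log2 CPM (prior count 2), of which a few are not reported here. Alternatives were limma 3.58.1 with voom, DESeq2 1.42.0, library sizes alone, all genes unfiltered, a minimum of 10 counts per library, a fit of only the time points compared, the replicate block, an FDR under 0.25 as the study used, and leaving out each library. Promoter sequences came from RefSeq (GRCm38.p6).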

Additional observations from a re-analysis of the deposited data

Results flagged for a closer look

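The effect of FGF6 on these phosphatases differed between time points by interaction tests (edgeR, FDR under 0.05). On the log2 scale, from 4 to 8 h it changed by 0.37 for *Dusp4*, 0.49 for *Dusp5*, 0.77 for *Dusp6*, -0.41 for *Dusp10*, and 0.30 for *Dusp14*. From 8 to 24 h it changed by -0.48 for *Dusp1*, -0.59 for *Dusp5*, 0.25 for *Dusp6*, -0.66 for *Dusp7*, and -0.89 for *Dusp10*. From 4 to 24 h it changed by 0.26 for *Dusp4*, 1.02 for *Dusp6*, -0.67 for *Dusp7*, -1.31 for *Dusp10*, 0.44 for *Dusp14*, and 0.36 for *Dusp16*. *Dusp8* passed none of these 3 tests.

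Several of these calls lay near the threshold and were lost in some fits with 1 library left out. The estimate itself sometimes barely moved, as for *Dusp1* from 8 to 24 h without FGF6 8 h replicate 2 (-0.49, FDR 0.0504). The *Dusp1* change from 8 to 24 h was called in 5 of 12 fits with 1 library left out, and was -0.29 (FDR 0.135) without Veh 24 h replicate 1, the library with the highest *Dusp1*. The *Dusp4* change from 4 to 24 h was called in 4 of 12 (0.21, FDR 0.135, without Veh 24 h replicate 3), and that from 4 to 8 h was lost without Veh 8 h replicate 2 (0.27, FDR 0.113). The *Dusp6* change from 8 to 24 h was called in 4 of 12 (0.16, FDR 0.232, without Veh 24 h replicate 2), and the *Dusp14* change from 4 to 8 h in 5 of 12 (0.24, FDR 0.115, without Veh 8 h replicate 2). The *Dusp5*, *Dusp7*, and *Dusp10* changes listed here, the *Dusp6* changes from 4 to 8 h and from 4 to 24 h, and the *Dusp14* and *Dusp16* changes from 4 to 24 h were called in all 12 fits each.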

How the results depend on the processing

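Of the 27 effects of FGF6 on members (9 genes, 3 times), the direction and the side of the threshold were the same in 27 with limma-voom, 26 with DESeq2, 24 with library sizes alone, 25 with no low-count filter, 26 with at least 10 counts in every library, 25 with only the libraries compared, and 26 with the replicate block. The values that changed sign were small and not called in the fit reported: *Dusp16* at 8 h was -0.0070 with library sizes alone, and *Dusp7* at 24 h ranged from -0.0071 to 0.10 with 1 library left out. The change of the *Dusp7* effect from 4 to 8 h was 0.012 with DESeq2, 0.035 with library sizes alone, and 0.016 with only the libraries compared, and ranged from -0.027 to 0.061 with 1 library left out, and that of *Dusp8* ranged from -0.11 to 0.23. The number of members whose FGF6 effect changed ranged from 3 to 6 (from 4 to 8 h) and from 3 to 5 (from 8 to 24 h) with 1 library left out. Of the changes of effect, limma-voom lost those of *Dusp4* from 4 to 8 h and from 4 to 24 h and of *Dusp6* from 8 to 24 h, DESeq2 and library sizes alone each lost that of *Dusp1* from 8 to 24 h, the minimum of 10 counts lost those of *Dusp4* from 4 to 24 h and *Dusp6* from 8 to 24 h, and the fit of only the libraries compared lost that of *Dusp6* from 8 to 24 h. At an FDR under 0.05, calls were gained for *Dusp16* from 4 to 8 h with library sizes alone and with only the libraries compared, for *Dusp16* from 8 to 24 h with library sizes alone, and for *Dusp1* from 4 to 24 h with no low-count filter. The cause of these shifts was not tested. Counts of genes called stayed within 1.5 times under every alternative run.

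Under the replicate block, *Dusp1* at 8 h was called (-0.25, FDR 0.0399) and no other member call changed. Same-numbered libraries correlated between -0.0275 and 0.0486 in their deviations from group means, and 8 of 18 libraries correlated best with their own number, so the numbers were not taken as pairs. Counts were few for *Dusp8* (48 to 173 in a library) and *Dusp2* (1 to 17), which limits the precision of their values.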
